A study of Solanum lycopersicum with 21 samples.

Results

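The genes described here are 100 tomato loci whose leaf transcripts moved in opposite directions in strigolactone-depleted plants and in plants sprayed with the strigolactone analogue GR24 5DS. Of 13385 Solyc loci (the tomato locus prefix) with a mean of at least 5 CPM (the count scaled to the library total), 5569 had opposite signs in these comparisons. That mean was taken over all 21 libraries, those sampled after drought included. The 100 taken were those in which the smaller of the 2 changes was largest. D is the log2 ratio of the irrigated depleted line to the irrigated wild type, and G that of sprayed to irrigated wild type, both from group means with 0.5 CPM added. In 90 loci, called depletion-low here, the level was lower in the depleted line and higher after spray. In the other 10, called depletion-high, it was higher in the depleted line and lower after spray. These values chose the loci, so they are given as a description and without a test.

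The plants, of cultivar M82, were 3 weeks old, and RNA of fully expanded leaves was sequenced in 21 libraries, 7 groups of 3. Wild type (WT) and line 6936, a line silenced in the strigolactone synthesis gene CCD7, were sampled under irrigation (time label 0), after rewatering from 1 drought (recovery 1, label 31) and after rewatering from 2 droughts (recovery 2, label 76). Irrigated wild type whose leaves were sprayed with 5 µM GR24 5DS 24 h before sampling (label 24) formed the seventh group, and its control here is the unsprayed irrigated wild type, since no mock-sprayed group was analysed. The labels give time without a unit, and sampling time moves with drought history, so the 2 cannot be told apart. The depleted line, 1 silenced line, had lost 70 to 80% of the strigolactone of its roots and exudates per the labels, and leaf contents were not analysed. A replicate held at least 3 leaves from different plants, with 5 plants named per condition, so whether the 3 replicates shared plants is not clear. The p-values then measure the spread between these libraries, which may be in part technical.

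Strigolactones are hormones made from carotenoids by cleavage dioxygenases, among them CCD7. In the cell they bind the receptor D14, which with the F-box protein MAX2 marks repressors of the SMXL family for breakdown. They are best known for holding back shoot branching and for signalling to fungi in the soil, and in leaves they are linked to drought tolerance and stomatal closure. Setting depletion beside added GR24 asks which leaf transcripts stand on opposite sides of the untreated wild type. The count table does not pair its IDs with gene names, and 0 of its 35039 IDs matched the RefSeq table used here. The loci are therefore named by ID, without symbol, role or sequence, and the leaf identity of the samples was not checked against marker genes. In whole leaves, fewer cells of a type and less RNA per cell cannot be told apart. Levels are not compared between loci, since their transcript lengths were not used here.

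Total counts ran from 19267602 in sprayed replicate 8 to 35433511 in sprayed replicate 11, and 3 counts in a library correspond to 0.0847 to 0.156 CPM. The scale matters for these loci. On library totals the median of all 13385 loci was −0.23 for D and 0.25 for G, and with TMM factors, which set the bulk of genes equal between libraries, it was 0.03 and 0.02. The factors were 0.760 to 0.890 in the irrigated depleted line, 0.905 to 1.10 in irrigated wild type and 1.24, 1.03 and 1.21 in sprayed replicates 8, 9 and 11. In the depleted line at recovery they were 0.882 to 1.08. Levels below are CPM on library totals, and fold changes from tests are TMM-scaled.

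The 90 depletion-low loci had a median D of −1.60, from −4.10 to −0.98, and a median G of 1.56, from 0.98 to 3.46. The 10 depletion-high loci had a median D of 1.43 and a median G of −1.19. After TMM scaling all 100 still had opposite signs, with medians of −1.36 and 1.33 for the depletion-low and 1.65 and −1.37 for the depletion-high loci. The excess of depletion-low loci depended on the scale. On library totals 4801 of the opposite-sign loci were depletion-low and 768 depletion-high, whereas with TMM scaling the numbers were 2038 and 2052. Members chosen anew on TMM-scaled CPM were 64 depletion-low and 36 depletion-high, and 73 of the original 100 were among them. At the limit, Solyc09g011590.3 was the last locus inside, with a smaller change of 0.979 in size (D), and Solyc04g051280.3 the first outside, with 0.978 in size (D) beside a G of 3.56.

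**Figure D1:**
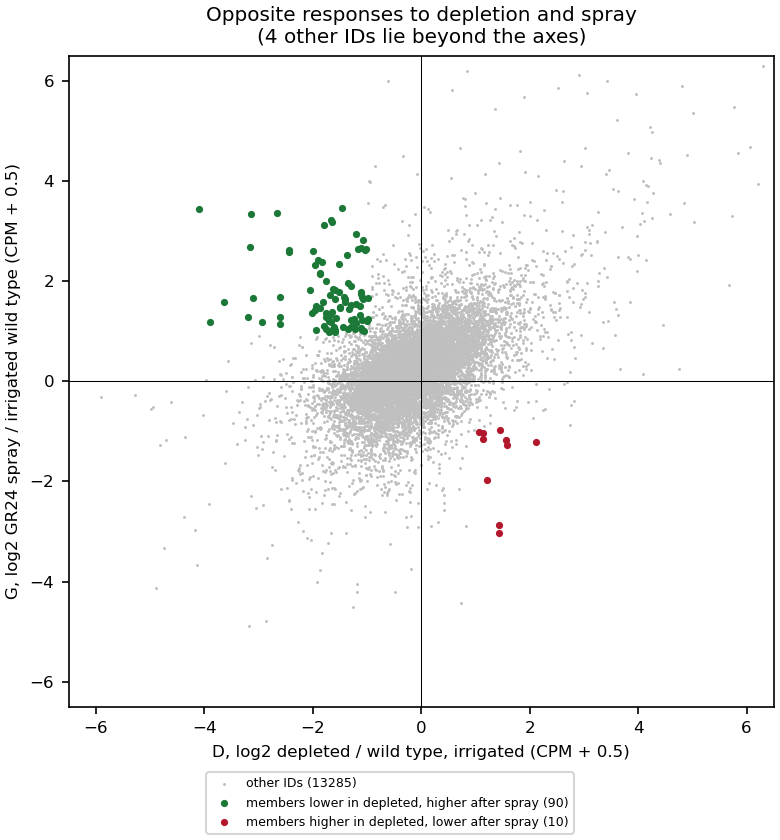
Each point is a locus, with D, the log2 ratio of irrigated depleted line to irrigated wild type, on the x axis and G, the log2 ratio of sprayed to irrigated wild type, on the y axis (CPM + 0.5). The 90 depletion-low members lie in the upper left, the 10 depletion-high members in the lower right, and the axes share the irrigated wild-type libraries.

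Solyc02g086700.3 led the depletion-low loci. It stood at 0.463, 0.801 and 1.03 CPM in the irrigated depleted line and at 5.40, 22.1 and 36.1 CPM in irrigated wild type. After spray it stood at 30.6 CPM in replicate 9, 306 CPM in replicate 8 and 367 CPM in replicate 11. The depleted libraries lay below all wild-type libraries, while sprayed replicate 9 fell inside the irrigated wild-type range. At the recoveries the locus was low in both genotypes, at 0.220 to 5.22 CPM in the wild type at recovery 1, 0.415 to 0.900 at recovery 2, and at most 0.948 in the depleted line.

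Solyc01g095930.3, second in order, showed no overlap between the 3 groups. Its level was 0.182 to 1.09 CPM in the irrigated depleted line, 4.80 to 10.95 in irrigated wild type and 28.0 to 168 after spray. At recovery 2 the wild type stood at 39.2, 50.9 and 101 CPM and the depleted line at 4.17, 8.43 and 21.3 CPM. The groups did not overlap there, yet the genotype difference of −2.22 ± 0.89 (log2 fold change, SE) was not called by edgeR (adjusted p = 0.0718).

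Among the depletion-high loci, Solyc02g085490.2 and Solyc10g052470.1 had the largest smaller change. The former stood at 19.8 to 29.3 CPM in the irrigated depleted line, 4.29 to 12.5 in irrigated wild type and 0.0519, 1.57 and 0.593 in sprayed replicates 8, 9 and 11. The latter stood at 9.98 to 20.1, 4.41 to 8.09 and 0 to 0.513 CPM. In both, neither pair of neighbouring groups overlapped.

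Without overlap between irrigated depleted and irrigated wild-type libraries were 80 of the 90 depletion-low loci, with the depleted line below, and 9 of the 10 depletion-high loci, with it above. Over all 13385 loci these orders held for 37% and 16.2%. The sprayed libraries all lay above irrigated wild type in 41 of the 90, and all below in 6 of the 10, against 28.8% and 13.3% of all loci. The full order of 3 separate groups held for 38 of the 90 and for 6 of the 10, where it held for 2.6% and 0.426% of all loci. These shares come from the libraries that chose the loci.

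The sprayed libraries differed among themselves. For the depletion-low loci the median log2 ratio to the irrigated wild-type mean was 2.13 in sprayed replicate 8, 1.48 in replicate 11 and 0.33 in replicate 9. Replicate 9 was the lowest sprayed library in 77 of the 90 loci and the highest in 0. It lay above all irrigated wild-type libraries in 46 loci and below all of them in 12, while replicates 8 and 11 lay above in 77 and 79. The depletion-high loci showed the mirror image, with medians of −2.90, −1.66 and −0.89 in replicates 8, 11 and 9. The median SD of log2(CPM + 0.5) over the sprayed libraries was 1.26 for the depletion-low loci and 0.30 for all loci. In the irrigated wild type the same SDs were 0.43 and 0.21. Without sprayed replicate 8 the rule kept 64 of the 100 loci, without replicate 9 it kept 79 and without replicate 11 it kept 73.

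**Figure D2:**
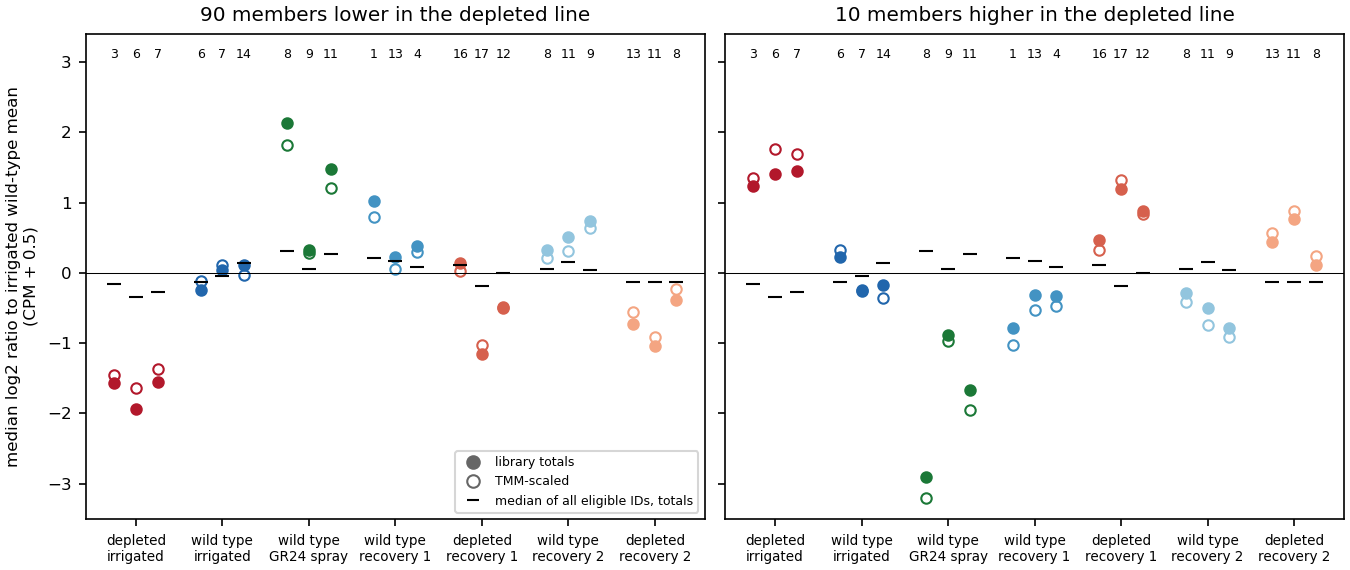
The y axis gives, for every library, the median over the loci of the log2 ratio of its level to the irrigated wild-type mean (CPM + 0.5), for 90 depletion-low loci (left) and 10 depletion-high loci (right). Filled points are on library totals, open points TMM-scaled, dashes the median of all 13385 loci, and numbers the replicates. Sprayed replicate 9 lies at 0.33 on the left, nearer to the irrigated wild type than replicates 8 and 11.

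Which sprayed library was highest split the depletion-low loci into 58 with the peak in replicate 8 and 32 with the peak in replicate 11. This grouping was made from the data and is a description. Loci of the first kind had median log2 ratios of 2.55, 0.43 and 1.09 in sprayed replicates 8, 9 and 11. Those of the second kind had 0.70, −0.11 and 2.54. Their medians were also set side by side in the recovery libraries, which the rule used only for the mean of at least 5 CPM. In recovery 1 of the depleted line, replicates 16, 12 and 17 had medians of 0.50, −0.19 and −1.04 over the 58 loci and of −0.95, −1.47 and −1.27 over the 32. The gap was wide in replicates 16 and 12 and small in replicate 17. In wild-type recovery 2, replicates 8, 11 and 9 had medians of 0.64, 0.65 and 1.16 over the 58 loci and of −0.44, 0.28 and −1.07 over the 32. Depleted libraries of recovery 2 lay at −0.68 to −0.02 for the 58 and at −2.62 to −1.82 for the 32. Over the 6 wild-type recovery libraries the medians ran from 0.28 to 1.29 for the 58 loci and from −1.07 to 0.29 for the 32. No test was made of this difference.

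**Figure D3:**
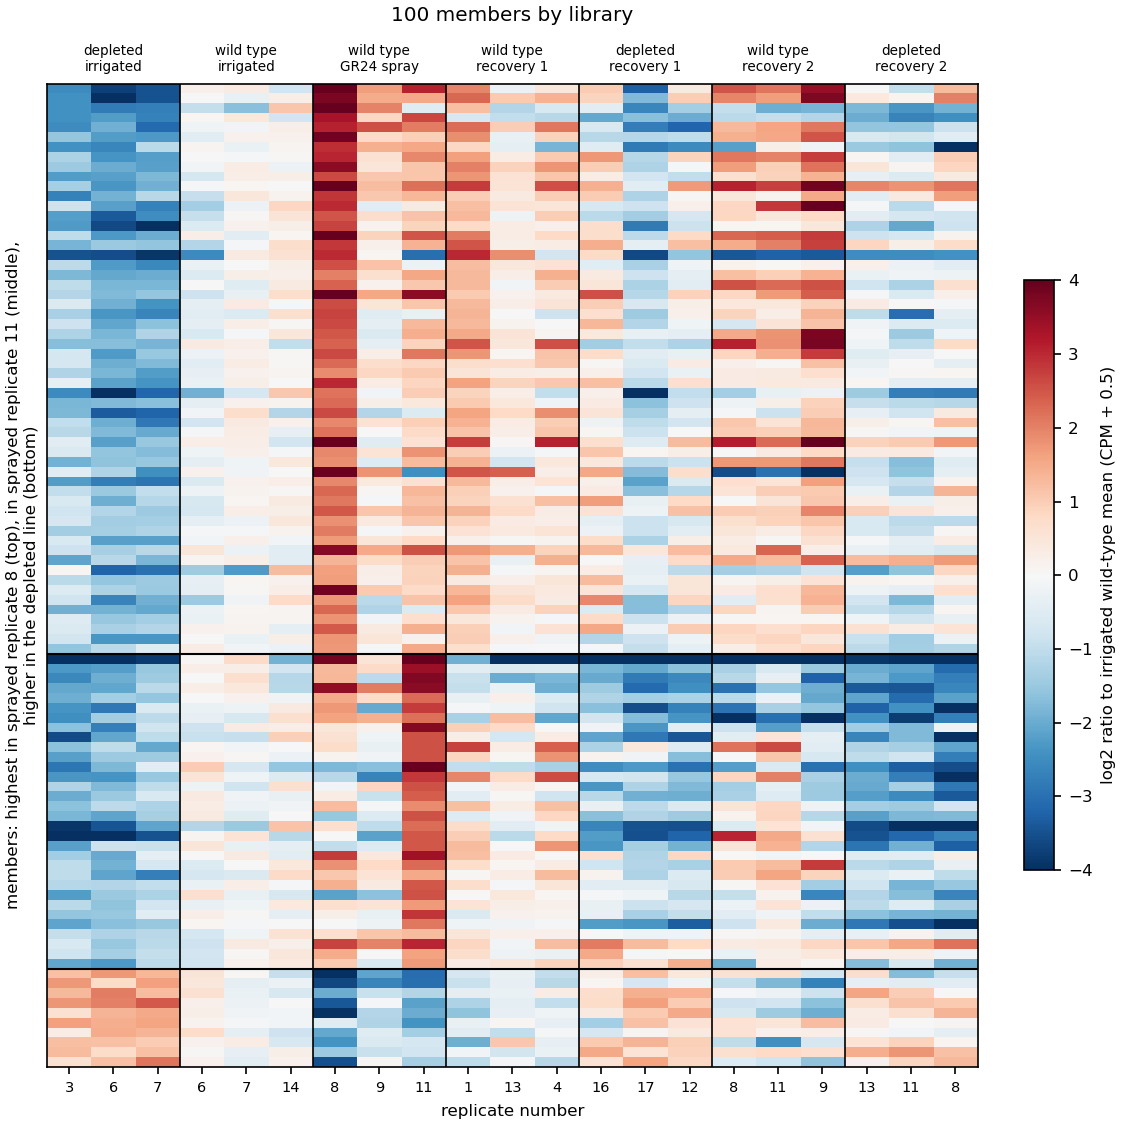
Rows are the 100 loci and columns the 21 libraries, and colour gives the log2 ratio to the irrigated wild-type mean (CPM + 0.5, limited to ±4). The upper 58 rows peak in sprayed replicate 8, the next 32 in sprayed replicate 11, and the lowest 10 are the depletion-high loci. The column of sprayed replicate 9 is paler than those of replicates 8 and 11.

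The recovery groups hold the 12 libraries that played no part in D and G, and they show whether the genotype difference recurs. They did enter the mean of at least 5 CPM, so a locus of low level elsewhere could qualify through a high recovery level. For such a locus the recovery difference is not independent of the choice. All 100 loci passed the low-count filter. At recovery 1 the depleted line was lower in 16 of the 90 depletion-low loci (17.8%) at an edgeR adjusted p under 0.05, where 9.71% of all 20373 loci tested were called lower. It was higher in 4 of the 10 depletion-high loci, where 9.92% of all were called higher and 19.6% in either direction. No locus was called against the sign of D by edgeR or DESeq2, and 1 was against it at an unadjusted p under 0.05. The median log2 fold change was −0.97 for the depletion-low and 1.56 for the depletion-high loci, beside 0.00 for all loci tested. Signs followed D in 79 of the 90 and in 10 of the 10. The 20 calls depended on single libraries. They numbered 5 without wild-type replicate 1, 6 without depleted replicate 12, 8 without depleted replicate 17 and 12 without wild-type replicate 4.

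Loci outside the 100 can have as low a D. Of 1576 such loci, 46.7% were lower at recovery 1 and 38.1% at recovery 2, against 17.8% and 28.9% of the depletion-low loci. Their median log2 fold changes were −0.67 and −0.52, smaller in size than the −0.97 and −1.15 of the depletion-low loci. The spread within groups was larger in the depletion-low loci than in all loci, with a median SD of 0.67 against 0.28 in the depleted line at recovery 1. That of the 1576 loci is not given here. The part of the spread in the number of calls was not tested, nor was the difference between the lists. For the depletion-high loci no outside list of as high a D was made, so their calls are set beside all loci alone.

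Solyc01g087180.3 had the largest called difference at recovery 1. It stood at 2.73, 12.7 and 13.4 CPM in the wild type and at 0.394, 0.489 and 0.666 CPM in the depleted line. The log2 fold change was −4.03 ± 0.87 (SE, edgeR adjusted p = 0.00470), and the groups did not overlap. Its mean was 0.189 CPM in the irrigated depleted line, 1.83 in irrigated wild type and 5.52 after spray. In the wild type it was 9.63 at recovery 1 and 19.6 at recovery 2. The locus thus reached the mean of 5 CPM through its wild-type recovery level, so this difference is in part selected. Solyc08g067340.3 stood at 6.73, 8.30 and 16.0 CPM in the wild type and at 0.359, 0.392 and 1.09 CPM in the depleted line, a fitted log2 change of −3.88 ± 0.92 SE (adjusted p = 0.00827 by edgeR). Both stayed called under every alternative fit that was run.

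The depletion-high locus Solyc10g078580.1 was at 17.7, 21.2 and 32.7 CPM in the wild type of recovery 1 and at 70.4, 85.2 and 131 CPM in the depleted line, a fitted log2 change of 2.22 ± 0.62 SE (adjusted p = 0.0194 by edgeR). Its call was lost without wild-type replicate 1 (adjusted p = 0.0902), wild-type replicate 4 (0.0562) or depleted replicate 17 (0.0804). Solyc02g091920.3 stood at 69.1, 169 and 188 CPM against 272, 436 and 602 CPM, a fitted log2 change of 1.80 ± 0.60 SE (adjusted p = 0.0419 by edgeR). That call was lost without any 1 of the 6 libraries but depleted replicate 16, at adjusted p of 0.0526 to 0.168, and without the low-count filter (0.0559). In neither locus did the genotypes overlap.

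At recovery 2 the depleted line was lower in 26 of the 90 depletion-low loci (28.9%), where 11.7% of all loci were called lower, and higher in 7 of the 10 depletion-high loci, where 14.9% were called higher and 26.6% in either direction. Against the sign of D, 2 depletion-low loci were called higher. The median log2 fold change was −1.15 for the depletion-low and 1.72 for the depletion-high loci, beside 0.02 for all. The 33 calls in the direction of D numbered 21 without wild-type replicate 11. The 2 calls against it were lost without wild-type replicate 11 or without depleted replicate 8. Without overlap, the depleted line lay below the wild type in 55 of the 90 on library totals, against 41.2% of all loci, and in 43 with TMM scaling, against 22.6%. It lay above in 7 of the 10 and in 3 of the 90, against 14.2% of all loci.

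Solyc10g005320.3 had the largest difference at recovery 2. It stood at 15.8, 29.5 and 86.6 CPM in the wild type and at 0.438, 0.688 and 1.20 CPM in the depleted line, a fitted log2 change of −5.55 ± 1.11 SE (adjusted p = 0.00190 by edgeR). Solyc08g067340.3 stood at 6.29, 8.76 and 14.1 CPM against 0.0829, 0.115 and 0.328 CPM, a fitted log2 change of −5.43 ± 1.07 SE (adjusted p = 0.00175 by edgeR). Its depleted libraries held 14 counts in all, so its size is imprecise. The fold changes ranged from −6.01 to −4.54 and from −6.28 to −5.12 over the alternatives, with both loci called in each. Under irrigation the depleted libraries of both loci lay below all wild-type libraries. The spray did not separate the groups in the same way. In sprayed replicates 8, 9 and 11, Solyc10g005320.3 stood at 10.2, 1.88 and 58.1 CPM. Solyc08g067340.3 stood at 15.4, 4.38 and 46.3 CPM there. In both loci only replicate 11 lay above all irrigated wild-type libraries, and in Solyc10g005320.3 replicate 9 lay below them.

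Of the depletion-high loci, Solyc02g091920.3 stood at 54.2, 78.4 and 136 CPM in the wild type of recovery 2 and at 261, 332 and 544 CPM in the depleted line, a fitted log2 change of 2.37 ± 0.61 SE (adjusted p = 0.00884 by edgeR). Solyc10g078580.1 stood at 13.2, 23.7 and 24.5 CPM against 65.3, 86.9 and 92.8 CPM, a fitted log2 change of 2.30 ± 0.62 SE (adjusted p = 0.0123 by edgeR). Its call was lost without wild-type replicate 9 (adjusted p = 0.0592). The depleted line lay above the wild type in all libraries of both loci.

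The calls against D belonged to Solyc02g077880.3 and Solyc05g045670.3. The first stood at 23.3 to 43.6 CPM in the irrigated depleted line, overlapping the irrigated wild type at 37.3 to 87.2 CPM, and at 270 to 560 CPM after spray. At recovery 2 the order was turned, with 146, 198 and 307 CPM in the depleted line and 84.6, 87.8 and 119 CPM in the wild type, a fitted log2 change of 1.44 ± 0.39 SE (adjusted p = 0.0126 by edgeR). It lost the call without depleted replicate 8 (adjusted p = 0.0609) or wild-type replicate 11 (0.0529). Solyc05g045670.3 stood at 5.66, 10.2 and 14.1 CPM in the depleted line and at 0.345, 1.13 and 1.89 CPM in the wild type, a fitted log2 change of 3.51 ± 1.15 SE (adjusted p = 0.0325 by edgeR). That call was lost without depleted replicate 13 (adjusted p = 0.0594) or 8 (0.0731), or without wild-type replicate 8 (0.0805), 11 (0.0591) or 9 (0.119). It was also lost without TMM factors (0.0550) and without the low-count filter (0.0547).

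**Figure D4:**
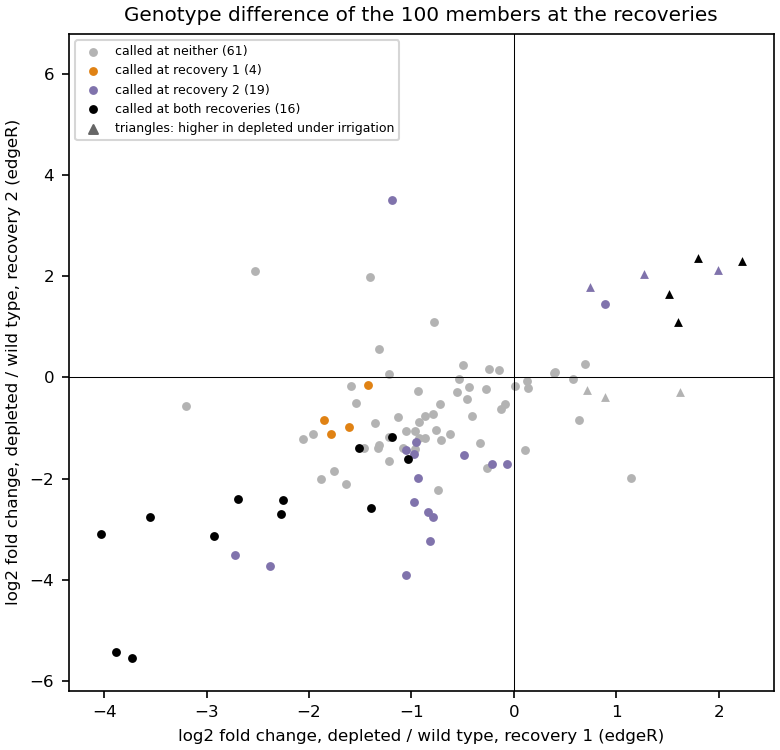
Each point is 1 of the 100 loci, with the edgeR log2 fold change of depleted line over wild type at recovery 1 on the x axis and at recovery 2 on the y axis. Circles are depletion-low and triangles depletion-high loci, and colour shows the calls in either direction. Of the loci, 16 were called at both recoveries, 4 at recovery 1 alone, 19 at recovery 2 alone and 61 at neither.

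The sign of D recurred at both recoveries in 77 of the 100 loci, 70 depletion-low and 7 depletion-high, and at neither in 4. Recurrence of sign was not particular to the depletion-low loci. Of the 90 depletion-low loci, 79 were negative at recovery 1 and 77 at recovery 2. Among the 1576 loci outside the 100 with as low a D, 1505 and 1351 were. Calls in the direction of D at both numbered 16, made up of 12 depletion-low loci with log2 fold changes of −4.03 to −1.03 and −5.55 to −1.17, and 4 depletion-high loci with 1.51 to 2.22 and 1.09 to 2.37. Of all loci tested, 5.24% were called lower and 6.88% higher at both. Over both recoveries in 1 contrast, 6 libraries of each genotype, 41 of the 90 depletion-low loci were lower in the depleted line (45.6%), against 19.1% of all loci. Of the 1576 loci outside the 100 with as low a D, 65.5% were called lower. Their median log2 fold change was −0.60, against −1.03 for the depletion-low loci. Of the 10 depletion-high loci 7 were higher, against 20.9% of all loci, with no outside list of as high a D to set beside them. Called in either direction were 39.9% of all loci. Only Solyc02g077880.3 was called against D there, at 1.16 ± 0.28 (log2 fold change, SE, edgeR adjusted p = 0.00309). The largest combined difference was in Solyc08g067340.3, at −4.65 ± 0.71 (log2 fold change, SE, edgeR adjusted p = 9.3e-05). Solyc10g005320.3 had −4.64 ± 0.75 and the depletion-high locus Solyc10g078580.1 had 2.26 ± 0.44 (log2 fold change, SE), both called. These counts held within 1.5 times without any single library, at 44 to 53 calls in the direction of D. In none of the 3 genotype comparisons were 47 loci called.

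The 3 depletion-high loci without a call at recovery 2 were Solyc02g085490.2, Solyc11g069960.2 and Solyc11g051170.2, named after their values were seen. Their fitted differences were 1.62, 0.89 and 0.71 at recovery 1 and −0.29, −0.39 and −0.26 at recovery 2 (log2 fold change). The other 7 kept a positive difference, from 1.09 to 2.37 at recovery 2.

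**Figure D5:**
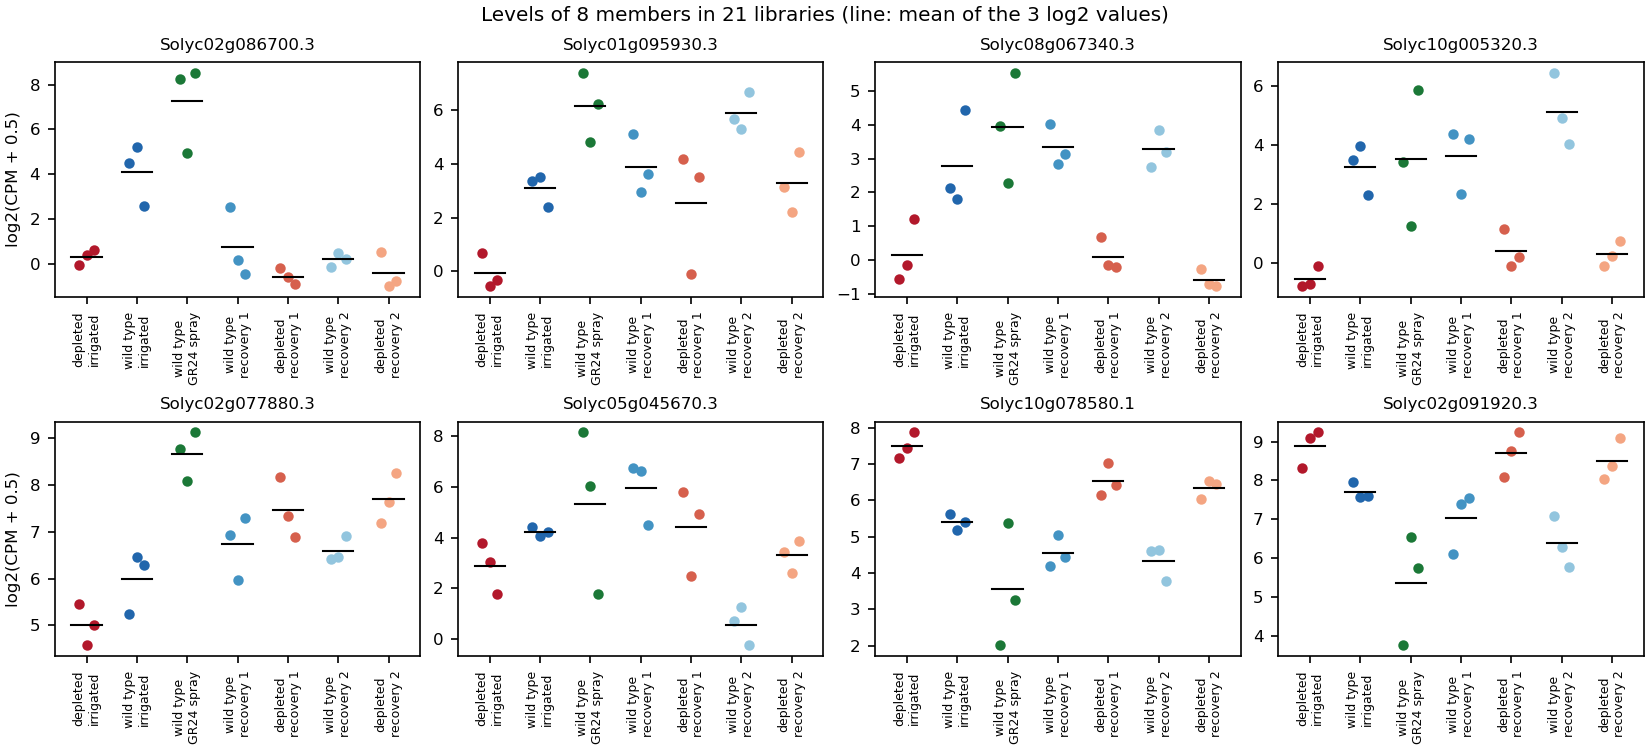
The y axis gives log2(CPM + 0.5) in each of the 21 libraries for 8 loci, by group, with a line at the mean of the 3 log2 values. Solyc08g067340.3 and Solyc10g005320.3 are low in all depleted groups, Solyc10g078580.1 and Solyc02g091920.3 are high in all depleted groups, and Solyc02g086700.3 is low in every recovery group.

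Levels at recovery were also set beside the irrigated groups. The mean of the wild type at recovery 1 was above irrigated wild type in 78 of the 90 depletion-low loci and above the sprayed mean in 6. At recovery 2 the numbers were 64 and 15. In the depleted line the mean was above its own irrigated mean in 79 of the 90 at recovery 1 and 68 at recovery 2, and above irrigated wild type in 31 and 21. The median log2 difference from the irrigated group of the same genotype was 0.62 and 0.56 in the wild type and 1.30 and 0.98 in the depleted line, on library totals. Medians of all loci were 0.17 and 0.09 in the wild type and 0.27 and 0.13 in the depleted line. The comparisons with irrigated groups use libraries that chose the loci for a low level in the depleted line. Those with the sprayed mean use libraries that chose the loci for a high level after spray. None of these comparisons was therefore tested. In the depleted line, recovery 1 replicate 16 had a median log2 ratio to irrigated wild type of 0.14, against −0.48 and −1.16 in replicates 12 and 17. Without it the calls at recovery 1 still numbered 20.

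Between the recoveries edgeR called few loci. In the wild type, 2 depletion-low loci were called lower at recovery 2 than at recovery 1. Of all loci, 0.216% were called lower, 0.0884% higher and 0.304% in either direction. At an unadjusted edgeR p under 0.05 there were 12 depletion-low loci and 1 depletion-high locus, beside 2895 of all 20373 loci tested. Solyc08g080620.2 fell from 2.39, 4.49 and 28.7 CPM to 0.0296, 0.172 and 1.03 CPM, a fitted log2 change of −4.96 ± 1.01 SE (adjusted p = 0.0468 by edgeR). Its groups did not overlap, and replicate 13 of recovery 1 stood far above the others. Solyc05g045670.3 fell from 22.3, 98.3 and 107 CPM to 0.345, 1.13 and 1.89 CPM, a fitted log2 change of −6.07 ± 1.25 SE (adjusted p = 0.0485 by edgeR). Both calls were lost on leaving out any single wild-type recovery library. The fitted values then ran from −6.71 to −3.17 and from −6.58 to −5.63, and DESeq2 called 7 of the 100 loci, against 3.11% of all loci to which it gave an adjusted p.

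In the depleted line edgeR called 0 of the 100 (0% of all loci) between the recoveries. DESeq2 called 1 of the 43 to which it gave an adjusted p, against 0.389% of all such loci. By edgeR there were 7 depletion-low loci and 1 depletion-high locus at an unadjusted p under 0.05. The difference of the genotype contrasts between the recoveries was called in 0 of the 100 by edgeR (0% of all loci) and in 0 by DESeq2 (0.327% of all loci), with 9 depletion-low and 0 depletion-high loci at an unadjusted edgeR p under 0.05. For Solyc05g045670.3, whose contrast changed sign, it was 4.70 ± 1.51 (log2, SE, edgeR adjusted p = 0.387). A difference between the recoveries in the genotype effect was thus not shown for any of these loci.

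The loci were spread over all 12 chromosomes, as read from the number in the ID. They made up from 0.448% of the loci with at least 5 CPM on chromosome 11 to 1.08% on chromosome 2, which held 15 of them. The depletion-high loci lay on chromosomes 1, 2, 4, 10 and 11, with 2 on each. Some members stood close together, with 7 pairs, all of the same class, within 100 of each other in ID number, made up of 11 loci. How often other loci stand this close was not computed, so no clustering is shown. A shared class is common among any pairs of members, since 90 of the 100 were depletion-low. Solyc12g006225.1 and Solyc12g006230.2 followed each other in the table and moved alike, with D of −2.05 and −1.94 and G of 1.82 and 1.51. Both were called lower in the depleted line over both recoveries together, at −1.30 and −1.18 (log2 fold change). So were Solyc07g006480.3 and Solyc07g006500.3, at −3.03 and −1.99. Neighbours did not always go together, as Solyc02g077880.3 was called higher at 1.16 and Solyc02g077980.2 lower at −1.54. Solyc09g090970.3 and Solyc09g091000.3 were not called, at 0.00 and −0.38. On chromosome 10, 3 members lay from Solyc10g075070.2 to Solyc10g075150.2, and none of them was called in a genotype comparison at recovery. The handling of reads that match near-identical loci was not stated, and the library kit does not mark strand, so counts of close copies and of antisense partners are uncertain. The neighbours were named after their values were seen.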

How the data were processed

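Leaf RNA of 21 libraries was counted per locus. Per the submitters' processing notes, HISAT2 and HTSeq were used, with versions, settings and genome build not given in the sources used here. Raw counts were deposited by the authors for 35039 IDs (33925 Solyc, 1114 ENSRNA), and 6 further columns that match no sample were not used. Planned checks by pathway and marker names could not be run, as no name matched. Groups came from the sample titles. Replicate pairs differed beyond sampling noise, with a chi-square per degree of freedom of 28.9 to 334 on loci with at least 20 counts, so no library was taken as a second copy of another. This does not show that replicates came from separate plants. Intervals and floors of 3 counts cover counting error only.

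Members were chosen with Python 3.11.15 by the rule given in the report, and the members, lists and tests were chosen with earlier results of these data known. Tests used edgeR 4.0.16 in R 4.3.3: filterByExpr (20373 IDs left), TMM factors, and a robust quasi-likelihood fit of 7 group means with 14 residual degrees of freedom. It gave 6 contrasts of recovery libraries, adjusted by Benjamini-Hochberg over all IDs tested and called under 0.05. Standard errors came from the fold change and the F statistic. The procedure was tested on simulated counts. Named loci are the first 2 of each class in the rule's order, the 2 called loci of largest change per class and genotype contrast in each direction, the 2 of smallest p per direction in the other contrasts, and the loci at the limit. Alternatives were other scalings, no filter, the compared groups alone, DESeq2 1.42.0, a replicate block, changed rules and leaving out each library.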

Additional observations from a re-analysis of the deposited data

How the results depend on the processing

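Values here are calls per 100 members, in the direction of D for the genotype contrasts. At recovery 1 the 20 calls ranged from 5 to 20 with each library left out, and at recovery 2 the 33 ranged from 21 to 29. Over both recoveries the 48 ranged from 44 to 53. With members chosen anew without each irrigated or sprayed library, an alternative added after seeing the data, the ranges were 17 to 23, 28 to 39 and 40 to 58. On the same basis, TMM-scaled CPM gave 22, 39 and 57 and group medians 14, 25 and 36, while the first 50 and first 200 loci gave 16 and 19, 32 and 32.5, and 46 and 48.5. Upper-quartile factors, library totals, no filter, DESeq2 and the compared groups alone kept these 3 counts within 1.5 times. The change between recoveries in the wild type was not stable, with 2 calls becoming 1 on library totals, 0 without the filter, 0 with the compared groups alone, 7 with DESeq2 and 0 without any single library; the cause was not tested. In the depleted line DESeq2 gave 1 call, among the 43 members with an adjusted p, for 0, and leaving out each library gave 0 to 0, as for the difference of the contrasts. Of the 100 members, 57 were kept with group medians and 64 to 88 with each library left out. Over all loci, calls at recovery 1 numbered 3999, and 1925, 2002, 2420 and 2430 without wild-type replicate 1, depleted replicate 12, depleted replicate 17 and with the compared groups alone. At recovery 2 the count of 5423 was 3468 without wild-type replicate 9. The genotypes at recovery 2 share replicate numbers 8 and 11, but same-numbered libraries did not deviate together (r of −0.01 and 0.02 across loci), so the numbers were not taken as pairs. With the replicate block the calls numbered 14, and 2137 over all loci. Under it Solyc02g091920.3, Solyc10g078580.1 and Solyc05g045670.3 had adjusted p of 0.0560, 0.0917 and 0.216 at recovery 2 by edgeR and were no longer called. At recovery 1 no paired analysis was possible because the genotypes share no number.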
